A study of Mus musculus with 96 samples.

Results

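The liver keeps time, and these data follow its RNA through the day in adult male C57BL/6J mice whose mothers had an unstable light schedule while pregnant. The 12 poly(A) RNA-seq libraries examined here, of 96 in the series, are all the livers of low-fat offspring of shifted mothers, 3 at each of ZT0, ZT6, ZT12 and ZT18. ZT stands for zeitgeber time in hours, with lights on at ZT0 and lights off at ZT12. During pregnancy only, the mothers of these mice had their lighting phase advanced by 8 h every 5 days. The offspring ate a low-fat diet without restriction from 4 weeks of age for 12 weeks. The same diet, strain, sex and times were used for 12 libraries of offspring whose mothers stayed on 12 h of light and 12 h of dark, and those are used here only to set their daily profiles beside these. The sources used here do not say whether the 3 replicates of a time were separate animals, so p-values measure the spread between these libraries only.

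In mammals the clock is a loop of transcription. ARNTL (also called BMAL1) pairs with CLOCK or NPAS2 and switches on the Per, Cry and Nr1d genes, whose proteins then switch the pair off, or repress Arntl. In the mouse liver this loop, together with feeding, drives daily cycles of genes for sugar, fat, bile acid and drug handling. Mice eat mostly in the dark.

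Values are FPKM, sequenced fragments relative to transcript length and library size, scaled here by 1 factor per library. FPKM keep no counts, so depth is unknown and no counting interval can be given. Differences are on the log2(FPKM + 1) scale, which understates the change of weakly expressed genes. Before scaling, the sum of FPKM ran from 546763 to 833499 per library. ZT0 replicate 1 stood apart: its median correlation with the other 11 libraries was 0.931, against 0.946 to 0.975 for the others, and its values rose with GC content (rho = 0.59 across genes). ZT12 replicates 1 and 2 were nearly the same, with a median absolute log2 ratio of 0.0445 over genes of at least 30 FPKM, against 0.154 to 0.902 for the other 11 pairs of replicates. Without counts it could not be tested whether they differ by more than sampling noise. Results are therefore given with both as separate libraries and with the pair averaged and counted as 1 sample. The scaling factors of the ZT6 libraries, 1.42, 1.08 and 1.15, were above those of all ZT12 and ZT18 libraries (0.718 to 0.959).

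Of 10283 genes tested, 2104 (20.5%) changed with time of day (F test over the 4 times in limma, with a threshold of 0.05 on p after Benjamini-Hochberg adjustment). Most reached their highest mean of log2 values at ZT18 (795 genes, 7.73% of those tested) or ZT6 (682 genes, 6.63%). Fewer were highest at ZT0 (394 genes, 3.83%) or ZT12 (233 genes, 2.27%). With the ZT12 pair averaged, 977 of 10288 genes (9.5%) passed, all of them among the 2104. Taking out each library's dependence on GC content and length gave 2219 of 9817 genes, of which 1491 were shared with the 2104. In all 4 fits (the 12 libraries, the pair averaged, the trends removed, and both changes together) 735 genes passed, which is 7.15% of those tested, with 164 highest at ZT0 and 255 at ZT6, and 80 highest at ZT12 and 236 at ZT18. Genes named below as rising, falling or changing passed in all 4 fits and with each library left out in turn, unless the exception is given beside them. Without ZT6 replicate 1, 2 or 3 the count was 1101, 890 or 751, without ZT12 replicate 1 or 2 it was 971 or 997, and without ZT18 replicate 1 it was 1170.

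The day of these livers had its widest contrast between ZT6 and ZT18. Of the 795 genes highest at ZT18, 763 (96%) were higher than at ZT6 in the pairwise test, and 17 (2.14%) were higher than at ZT12. Of the 682 genes highest at ZT6, 629 (92.2%) were higher than at ZT18. The 233 genes highest at ZT12 were seldom set apart from ZT18: 7 (3%) were higher than at ZT18, against 137 that were higher than at ZT6 and 120 that were higher than at ZT0. Those larger numbers rest on counting the ZT12 pair as separate libraries. With the pair averaged, 4 of all genes tested were higher at ZT12 than at ZT6. Against ZT0, 38 were then higher and 56 lower at ZT12. The ZT0 genes were spread, with 207 of 394 higher than at ZT12, 158 higher than at ZT6 and 116 higher than at ZT18. So a highest mean at ZT12 or ZT18 marks the time of the mean and not a difference between those 2 times.

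Among the activators of the clock loop, Arntl and Npas2 were highest at lights on and lowest at ZT12. Arntl, the DNA-binding activator of the loop, was at 9.82, 7.17 and 11.5 FPKM in the ZT0 libraries, 2.51, 0.309 and 0.319 at ZT6, 0.325, 0.477 and 0.101 at ZT12, and 2.89, 4.59 and 6.51 at ZT18. All ZT0 values lay above all others, and ZT6 replicate 1 was near the lowest ZT18 library. The difference between its highest and lowest mean was 3 ± 0.35 on the log2 scale (SE), with an adjusted p of 0.00102 in the F test of limma. Npas2, which can take the place of CLOCK, was at 3.85, 2.76 and 3.65 FPKM at ZT0, between 0.0314 and 0.343 at ZT6, between 0 and 0.019 at ZT12 and between 0.0996 and 0.746 at ZT18 (adjusted p = 0.000156, limma). Its ZT0 libraries did not overlap with any other. They alone reached 1 FPKM, so Npas2 passed the filter on low values only through the time at which it was high, and it was not tested when a ZT0 library was left out. Without the filter its adjusted p was 0.00143 (limma). Clock (adjusted p = 0.361, limma) and the receptor gene Rora (0.536) did not pass the test, and both had their lowest value in ZT0 replicate 1, at 0.343 and 0.454 FPKM.

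By time of the highest mean, the repressors ran from the Nr1d genes to Per3 and Ciart, and then to Per2 and Cry1. Most were not set apart from a neighbouring time. At ZT12 against ZT6 the adjusted p was 0.193 for Nr1d2, 0.632 for Per3 and 0.0965 for Ciart (limma). It was 0.975 for Per2 at ZT18 against ZT12, and 0.753 for Cry1 at ZT18 against ZT0 (limma). Nr1d1, a nuclear receptor (REV-ERB alpha) that represses Arntl, was at 27.6, 24.8 and 28 FPKM at ZT6, against 2.7, 3.01 and 6.6 at ZT0. It was at 8.24, 7.52 and 9.56 FPKM at ZT12 and at 1.15, 1.33 and 0.419 at ZT18, and no 2 times overlapped. Its highest and lowest means differed by 3.85 ± 0.26 log2 (SE; adjusted p = 0.000156, limma F test). Nr1d2, its close relative, was also highest at ZT6 but lowest at ZT0, with 15.4, 33.7 and 24.6 FPKM at ZT6 and 11.7, 13.1 and 16.1 at ZT12, against 0.295, 1.97 and 2.46 at ZT0, and 4.33, 4.53 and 2.15 at ZT18. Ciart, a repressor of the CLOCK and ARNTL pair, was at 9.58, 9.56 and 9.31 FPKM at ZT12, against 0.0829, 0.151 and 0.109 at ZT0 (adjusted p = 0.00688, limma). Per3, a member of the Period family, was at 4.07, 3.99 and 6.26 FPKM at ZT12, against 0.136 to 0.158 at ZT0. At ZT6 both genes were split, with replicate 1 low (0.51 FPKM for Ciart and 0.983 for Per3) and the other libraries near the ZT12 level (7.28 and 5.17, and 6.95 and 5.13). Per2 reached 9.53, 15.2 and 5.77 FPKM at ZT18 and was already at 8.62, 8.73 and 8.04 at ZT12, against 0.707, 3.73 and 3.23 at ZT6 (adjusted p = 0.0106, limma). Cry1, a cryptochrome that blocks the activators late in the cycle, was at 8.49, 8.99 and 15.5 FPKM at ZT18 and 12.2, 7.24 and 9.89 at ZT0, against 0.755, 1.05 and 1.6 at ZT6 (adjusted p = 0.000484, limma). Its ZT6 libraries lay below all others. Per1 also passed (adjusted p = 0.0247, limma), but not with the ZT12 pair averaged (0.0593) or without ZT0 replicate 3, ZT12 replicate 1 or ZT12 replicate 2 (up to 0.0599), and its other alternatives gave 0.00224 to 0.0776. Cry2 (0.476) and Bhlhe40 (0.301) did not pass, and Bhlhe41, at most 1.38 FPKM, was under the filter on low values.

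**Figure D1:**
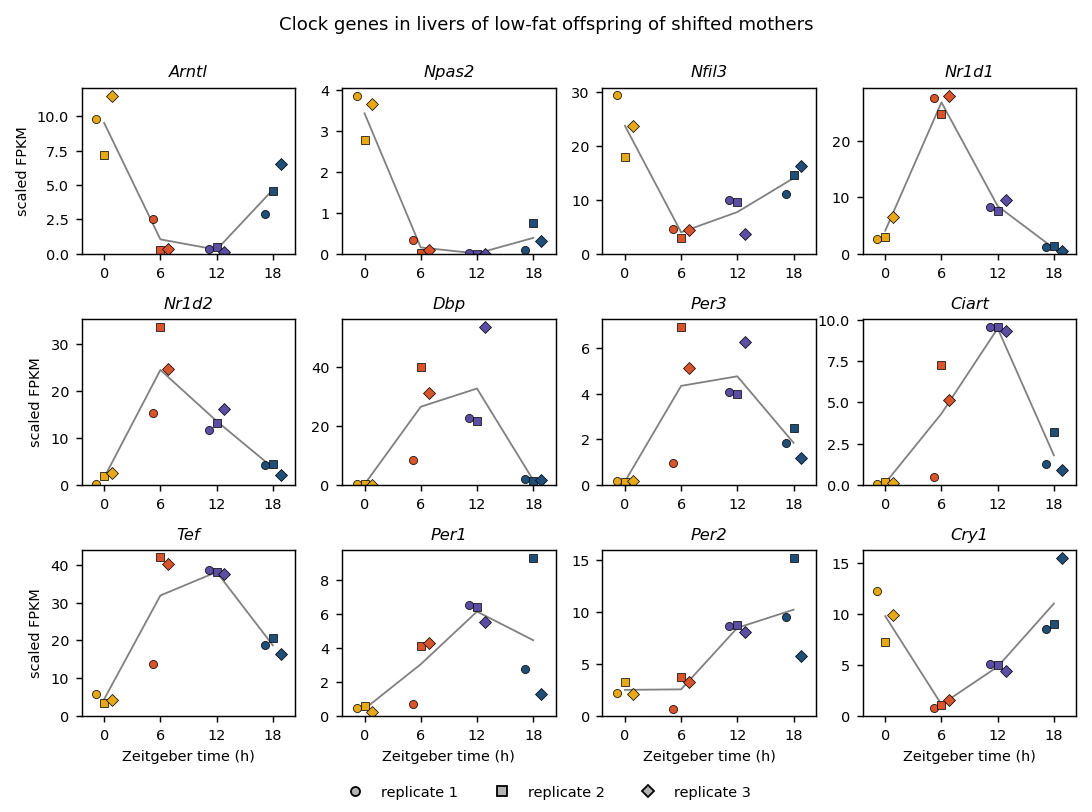
Scaled FPKM of 12 clock genes (vertical axes) at ZT0, ZT6, ZT12 and ZT18 (horizontal axes), 1 point per library with a shape for each replicate and a grey line through the means of 3. Arntl, Npas2 and Nfil3 are highest at ZT0, the Nr1d genes at ZT6, Dbp, Per3, Ciart, Tef and Per1 at ZT12, and Per2 and Cry1 at ZT18, and ZT6 replicate 1 (circle) lies below the other ZT6 libraries for Dbp, Per3, Ciart and Tef.

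The output factors bind D-box sites in genes that carry the rhythm to metabolism. Dbp, an activator at D-boxes, had the largest difference of the named genes highest at ZT12, at 4.67 ± 0.46 log2 (SE; adjusted p = 0.000325, limma). It was at 0.294, 0.244 and 0.122 FPKM at ZT0, 8.5, 40 and 31.2 at ZT6, 22.9, 21.8 and 53.8 at ZT12, and 2.09, 1.25 and 1.65 at ZT18. Its ZT6 and ZT12 libraries overlapped and lay apart from ZT0 and ZT18 (ZT12 against ZT6, difference of 0.42 ± 0.46 log2, adjusted p = 0.572, limma). Tef, a related activator, was at 38.7, 38.1 and 37.6 FPKM at ZT12 and at 5.72, 3.55 and 4.16 at ZT0. Nfil3, which represses the same sites, ran the other way, at 29.4, 17.9 and 23.7 FPKM at ZT0, against 4.6, 2.97 and 4.39 at ZT6 (adjusted p = 0.00381, limma). Hlf, the third activator, did not pass (0.0814). In all, 12 of 17 clock genes tested changed, 11 of them in all 4 fits.

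A 24 h cosine put the times of the fitted maxima in the same order, as a description of 4 sampled times. Nr1d1 had its maximum at 6.9 ± 0.3 h after lights on (SE), Nr1d2 at 9.1 ± 0.6 h and Dbp at 9.7 ± 0.4 h. Per3 followed at 10.9 ± 0.8 h, with Ciart and Tef both at 11.2 h, and Per2 at 15.3 ± 0.7 h. The night ended with Cry1 at 19.3 ± 0.6 h, Nfil3 at 21 ± 0.8 h, Arntl at 22.1 ± 0.5 h and Npas2 at 23.6 ± 0.7 h. Neighbours in this order, such as Nr1d2 and Dbp or Per3 and Ciart, lie within 1 SE of each other. A cosine in place of the 4 means ended the calls of some genes named below, Hsd3b5, Serpina1e, Cyp4a14, Mt1, Mt2, G0s2, Abcb4, Hyou1, Pdia4, Cyp1a2, Acot1, Acot2, Nsdhl, Slc22a5, Sult1d1 and Apoa4 (adjusted p up to 0.935, for Apoa4, limma). Within a time the libraries were not always equally near to the ZT0 mean, counted over clock genes that passed and did not pass alike. Of the 17 clock genes tested, 13 had ZT6 replicate 1 as the ZT6 library nearest to the ZT0 mean, against 1 for replicate 2 and 3 for replicate 3. For replicates 1, 2 and 3 the numbers were 7, 5 and 5 at ZT12, and 2, 6 and 9 at ZT18. Such counts do not measure phase, and whether these libraries differed in phase was not tested.

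Several of these genes carry, close to their start, the letters that clock proteins are known to bind, and the stretches are shown because the genes with them stand at different times in the order above. Sequences are from RefSeq on build GRCm38.p6, 5′ to 3′ on the gene's strand, with the motif in capitals. E-boxes (CACGTG, or the variant CACGTT, whose reverse reads AACGTG) are sites of CLOCK and ARNTL and are shown for Ciart, at chr3:95882229-95882378 (minus strand), and Cry1, at chr10:85185055-85185174 (minus strand). D-boxes (TTATGTAA, or a variant of it with a CpG) are sites of DBP, TEF, HLF and NFIL3 and are shown for Per3, at chr4:151044766-151044885 (minus strand). The ROR and REV-ERB core (TAGGTCA, whose reverse reads TGACCTA) is shown for Arntl, at chr7:113207531-113207557 (plus strand, inside the transcript's first exon), and Nfil3, at chr13:52981040-52981066 (minus strand).
Ciart: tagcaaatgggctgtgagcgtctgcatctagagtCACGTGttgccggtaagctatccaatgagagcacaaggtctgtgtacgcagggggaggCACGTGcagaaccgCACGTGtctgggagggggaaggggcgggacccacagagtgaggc
Cry1: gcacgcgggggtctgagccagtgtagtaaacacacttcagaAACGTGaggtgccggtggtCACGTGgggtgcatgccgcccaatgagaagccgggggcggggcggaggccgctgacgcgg
Per3: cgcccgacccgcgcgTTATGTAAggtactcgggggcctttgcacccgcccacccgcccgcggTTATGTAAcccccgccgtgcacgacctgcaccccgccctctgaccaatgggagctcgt
Arntl: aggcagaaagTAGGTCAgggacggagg
Nfil3: cgcggcgctcggaacTGACCTActaac

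Ciart, highest at ZT12, has 3 E-boxes in 150 bases, and Cry1, highest at ZT18, has 1 and a variant. Per3, highest at ZT12 with Dbp and Tef, has 2 D-boxes. Arntl and Nfil3, both highest at ZT0, each have 1 receptor core. On either strand of a window of 250 bases before and 50 after the start, 5 of the 16 clock genes with a RefSeq window (31.2%) held CACGTG, against 968 of 7886 genes tested (12.3%). For the D-box the share was 5 of 173 genes highest at ZT12 (2.89%), against 79 of 7886 (1.0%). For the receptor core it was 12 of 308 genes highest at ZT0 (3.9%), against 207 of 7886 (2.62%). The gene sets thus differ between motifs. By time of the highest mean, from ZT0 to ZT18, CACGTG stood in 12.7%, 15.0%, 12.7% and 12.5% of genes. The variant CACGTT stood in 2.6%, 5.71%, 6.36% and 6.58%, against 6.28% of all genes tested and 18.8% of the clock genes. At the other times the D-box share was 0.325% to 1.18%, and that of the receptor core 2.31% to 3.05%. These are counts of letters, not of bound sites.

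**Figure D2:**
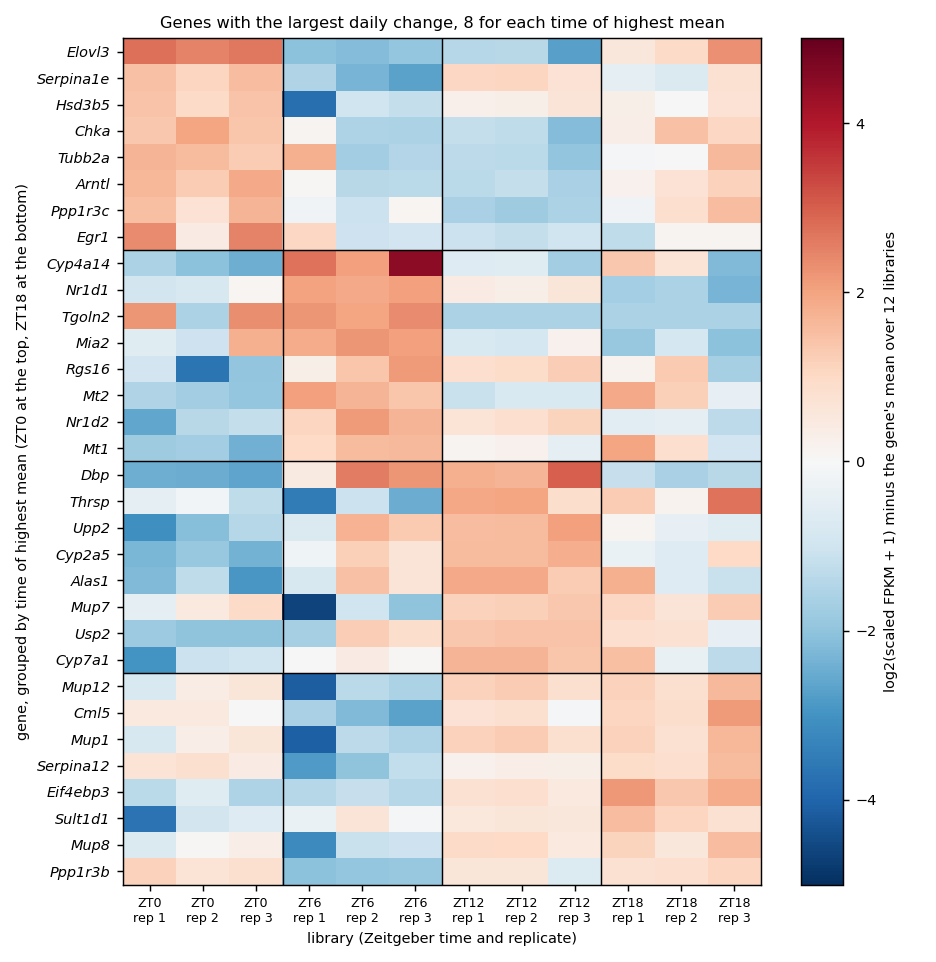
Colour shows log2(scaled FPKM + 1) minus the gene's mean over the 12 libraries, with genes as rows grouped by the time of the highest mean (ZT0 at the top, ZT18 at the bottom) and libraries as columns in order of time and replicate. Of the genes eligible to be named, the 8 per time with the largest difference between highest and lowest mean on the log2 scale are drawn. Their differences run from 2.83 (Egr1) to 5.09 (Cyp4a14), and ZT12 replicates 1 and 2 look alike throughout.

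Genes highest at lights on included enzymes of fatty acid and phospholipid metabolism and chaperones of the endoplasmic reticulum. Elovl3, an enzyme that lengthens very long fatty acids, had the largest difference of those named, 4.66 ± 0.41 log2 (SE; adjusted p = 0.000156, limma). It was at 634, 515 and 574 FPKM at ZT0, 21.6, 20 and 23.6 at ZT6, 33.6, 34.3 and 13.4 at ZT12, and 139, 181 and 455 at ZT18. ZT18 replicate 3 stood nearest to the ZT0 libraries, which lay above all others. Ppard, a nuclear receptor for fatty acids, was at 16.4, 11.8 and 14.1 FPKM at ZT0, against 1.26, 1.05 and 1.11 at ZT6 (adjusted p = 0.000156, limma). Chka, which starts phosphatidylcholine synthesis from choline, was at 40.8, 63.3 and 42.1 FPKM at ZT0, against 6.24, 5.84 and 2.68 at ZT12. Gpam, which starts glycerolipid synthesis at the mitochondrion, was at 78.4, 18.9 and 55.2 FPKM at ZT0 and 36.7, 45.2 and 42.3 at ZT6, against 11.6, 10.9 and 10.5 at ZT12 and 3.25, 7.92 and 12.8 at ZT18 (adjusted p = 0.0077, limma). The ZT0 and ZT6 libraries of Gpam thus all lay above those of ZT12 and ZT18. Ppp1r3c, a subunit that brings a phosphatase to glycogen, reached 49.4, 28.5 and 56.4 FPKM at ZT0, against 4.73, 4.14 and 4.87 at ZT12. Hsd3b5, a male liver steroid enzyme, was at 238, 172 and 237 FPKM at ZT0 and at 5.65, 43.6 and 38.5 at ZT6. Serpina1e, an alpha-1 antitrypsin copy, was at 9480, 7140 and 9930 FPKM at ZT0 and at 1210, 684 and 529 at ZT6, though reads of its near-identical copies could be split wrongly. Tubb2a (beta tubulin) and Egr1 (an immediate early transcription factor) completed the 8 largest genes, but their calls ended with the ZT12 pair averaged (adjusted p = 0.0852 and 0.0558, limma). They also ended for both without ZT0 replicate 1 or 3 or ZT12 replicate 1 or 2, and for Tubb2a without ZT0 replicate 2, ZT6 replicate 2 or 3, ZT12 replicate 3 or ZT18 replicate 1 (up to 0.0996 for Tubb2a and 0.0679 for Egr1). Over the other alternatives p ran from 0.0012 to 0.113 for Tubb2a and from 0.000753 to 0.0792 for Egr1.

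Genes of the unfolded protein response, which helps secreted proteins fold in the endoplasmic reticulum, were mostly highest at the same time when they passed. Of 22 members tested, 9 passed (40.9%, against 20.5% of all genes), 7 of them highest at ZT0, and 6 passed in all 4 fits. This list and the others were chosen with earlier results of these data known. Setting them against all genes is therefore a description. Hyou1, a chaperone of the endoplasmic reticulum, was at 93.6, 56.9 and 65.7 FPKM at ZT0, against 16.5, 7.12 and 16.4 at ZT6. Pdia4, which forms disulfide bonds, was at 152, 110 and 128 FPKM at ZT0, above all other libraries (32.9 to 80.5). Sel1l, part of the machinery that removes misfolded proteins, was at 36.3, 21.2 and 31.5 FPKM at ZT0, against 10.6, 11 and 16.4 at ZT18. Trib3, a stress-induced pseudokinase, was the exception at ZT6, with 13, 3.05 and 7.19 FPKM, against 0.974, 1.03 and 1.46 at ZT12. Of 22 genes of cholesterol synthesis and LDL uptake, 7 passed (31.8%), 6 of them highest at ZT0, but 3 in all 4 fits. Srebf2, the transcription factor of that pathway, was at 11.7, 5.23 and 8.33 FPKM at ZT0, against 2.4, 3.27 and 2.88 at ZT18 (adjusted p = 0.0115, limma). Nsdhl, a sterol demethylation enzyme, was at 40.8, 49.9 and 38.3 FPKM at ZT0 and at 10.2, 17.9 and 17.3 at ZT6 (adjusted p = 0.0198, and 0.0513 without ZT6 replicate 1, limma). Stard4, a sterol carrier, stood at 12.2, 31.7 and 23.5 FPKM at ZT6, against 2.99, 3.76 and 4.72 at ZT18.

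Genes highest in the middle of the light phase included enzymes of fat oxidation, metallothioneins and transporters. Cyp4a14, a fatty acid omega-hydroxylase and target of PPAR alpha, had the largest difference of all named genes, 5.09 ± 0.78 log2 (SE; adjusted p = 0.00688, limma). It was at 5.58, 3.76 and 2.63 FPKM at ZT0, 128, 79.6 and 429 at ZT6, 11.4, 12 and 4.81 at ZT12, and 48.9, 30.6 and 3.29 at ZT18. The ZT6 libraries lay above all others but were far apart among themselves. Of 24 fat oxidation and ketogenesis genes tested, 8 passed (33.3%, against 20.5% of all genes). Of these, 5 were highest at ZT6 and 3 at ZT18, and 5 passed in all 4 fits. Acot2, a mitochondrial acyl-CoA thioesterase, was at 4.97, 2.29 and 3.72 FPKM at ZT6, against 0.984, 1.21 and 0.912 at ZT0, and its near copy Acot1 was highest at ZT18 (19.4, 14.2 and 14.6, against 6.09, 4.37 and 3.66 at ZT0). Angptl4, a secreted inhibitor of lipoprotein lipase, was at 71.2, 75.2 and 13.4 FPKM at ZT18, against 3.91 to 6.79 at ZT0. The metallothioneins, which bind zinc and respond to glucocorticoids, both changed. Mt2 was at 37.7, 29 and 23.3 FPKM at ZT6 and 33, 20.2 and 5.92 at ZT18, against 2.27, 1.74 and 1.4 at ZT0 (adjusted p = 0.00172, limma). Mt1 was at 45.5, 68.8 and 70.3 FPKM at ZT6 and 91.4, 40.8 and 11.1 at ZT18, against 5.88, 6.06 and 3.48 at ZT0. At ZT18 replicate 3 was the lowest library for Cyp4a14, Angptl4, Mt1 and Mt2 alike. Apoa4, an apolipoprotein of triglyceride-rich particles, had a pair of high times, at 1010, 421 and 984 FPKM at ZT6 and 1210, 540 and 607 at ZT18, against 162, 162 and 211 at ZT12. Klf9, a transcription factor induced by glucocorticoids, was at 14.2, 23.8 and 22.2 FPKM at ZT6, against 3.39, 3.85 and 1.07 at ZT18.

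Of 12 transporters tested, 7 passed (58.3%, against 20.5% of all genes), 4 of them highest at ZT6, and 6 passed in all 4 fits. Slco1a4, an organic anion uptake carrier, was at 10.9, 14.7 and 14.6 FPKM at ZT6, against 0.836, 3.03 and 4.26 at ZT0. Slc22a5, the carnitine carrier, was at 5.83, 6.88 and 7.78 FPKM at ZT6, against 3.11, 2.31 and 2.8 at ZT0 (adjusted p = 0.0123, and 0.0507 without ZT6 replicate 3, limma). Slc22a7, another organic anion carrier, was at 21.4, 22.7 and 36.2 FPKM at ZT0, against 8.82, 4.53 and 6.1 at ZT6. Of 15 genes of bile acid synthesis and transport, 7 passed (46.7%), 6 in all 4 fits. Abcb11, the bile salt export pump, was at 96.6, 102 and 138 FPKM at ZT0 and 107, 134 and 100 at ZT6, against 48.4, 48.7 and 53.4 at ZT12 and 48.2, 65.2 and 58.9 at ZT18. Its libraries of ZT0 and ZT6 did not overlap with those of ZT12 and ZT18. Abcb4, which moves phospholipid into bile, was at 88.8, 50.9 and 64 FPKM at ZT6, above all other libraries (25.4 to 34.3). Slc40a1, the iron exporter ferroportin, was at 33.1, 42.7 and 37.3 FPKM at ZT6, above all other libraries (8.54 to 21.9). Rgs16, a brake on G protein signals, was at 30.4, 67.1 and 113 FPKM at ZT6, against 12.2, 1.07 and 5.58 at ZT0 (adjusted p = 0.0199, limma), and its call ended without ZT0 replicate 2 or ZT6 replicate 3 (up to 0.0523). Among the 8 largest ZT6 genes, Tgoln2 was at 10.9 to 14.3 FPKM in 5 libraries of ZT0 and ZT6 and near 0 in the other 7, and it has a near copy, Tgoln1, so its value is uncertain, and it was not tested in the fits that remove trends. Mia2 (26.2, 33.3 and 29.9 FPKM at ZT6, against 1, 3.01 and 0.804 at ZT18) overlaps Ctage5, with which reads can be shared.

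**Figure D3:**
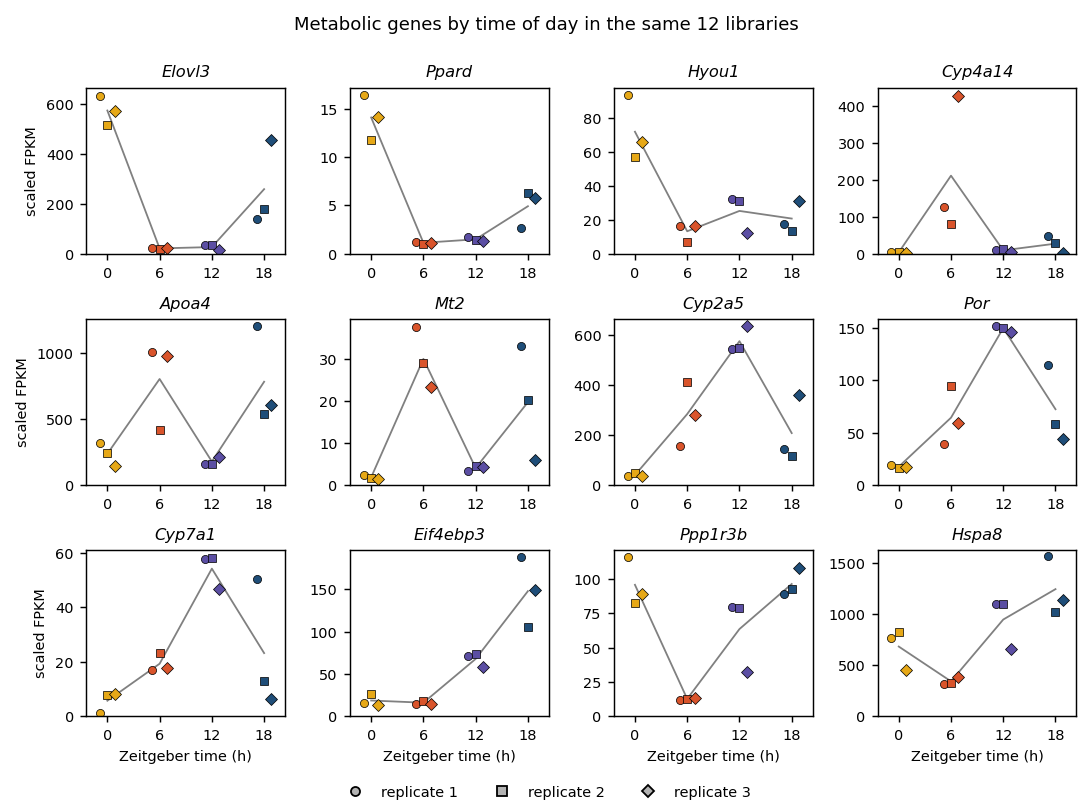
Scaled FPKM of 12 metabolic genes (vertical axes) at the 4 times (horizontal axes), 1 point per library with a shape for each replicate and a grey line through the means of 3. Elovl3, Ppard and Hyou1 are highest at ZT0, Cyp4a14, Apoa4 and Mt2 at ZT6, Cyp2a5, Por and Cyp7a1 at ZT12, and Eif4ebp3, Ppp1r3b and Hspa8 at ZT18.

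Genes highest at lights off included cytochrome P450 enzymes and the rate-limiting enzymes of heme and bile acid synthesis. Of 15 drug metabolism genes tested, 7 passed (46.7%, against 20.5% of all genes). Of these, 5 were highest at ZT12, and 5 passed in all 4 fits. Cyp2a5, a coumarin hydroxylase, was at 36.3, 47.8 and 34.3 FPKM at ZT0, 155, 412 and 281 at ZT6, 541, 546 and 633 at ZT12, and 145, 116 and 359 at ZT18 (difference of 3.84 ± 0.41 log2, SE; adjusted p = 0.00102, limma). The ZT12 libraries lay above all others, though reads can be shared with its near copy Cyp2a4. Por, which passes electrons to every microsomal cytochrome P450, was at 152, 150 and 146 FPKM at ZT12, against 18.9, 16.1 and 17.1 at ZT0 (adjusted p = 0.00187, limma). Cyp1a2, which clears caffeine, was at 313, 303 and 340 FPKM at ZT12, above all other libraries (81 to 196). Upp2, a liver uridine phosphorylase, was at 249, 255 and 348 FPKM at ZT12 and 49.7, 281 and 209 at ZT6, against 9.09, 18.5 and 30.8 at ZT0. Alas1, the rate-limiting enzyme of heme synthesis, was at 301, 300 and 197 FPKM at ZT12, against 16.6, 32.4 and 9.97 at ZT0 (adjusted p = 0.0163, limma). It was the 1 gene to pass of 11 tested for heme synthesis and breakdown (9.09%). At ZT18 its libraries were split, with replicate 1 at 275 FPKM and the others at 51.7 and 36.8. Cyp7a1, the rate-limiting enzyme of bile acid synthesis, showed the same split, at 50.2, 12.8 and 6.39 FPKM at ZT18, and was at 57.8, 58.1 and 46.5 at ZT12, against 1.29, 7.59 and 7.99 at ZT0. Its adjusted p was 0.018, 0.0499 at most with 1 library left out and 0.0598 without the filter on low values (limma), and without that filter the call of Alas1 also ended (0.0547). Nr0b2 (SHP), a repressor of Cyp7a1, had its highest mean at ZT18, at 17.1, 33.3 and 56.9 FPKM, and was at 30.4, 23 and 44 at ZT0. At ZT12 it was at 8.32, 8 and 7.32 FPKM, and these libraries lay below all others. Hsd3b7, which acts later in the same pathway, was at 320, 281 and 332 FPKM at ZT0, above all other libraries.

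Genes of glycogen and fat storage were highest at different times. Gys2, the liver glycogen synthase, was at 165, 165 and 198 FPKM at ZT12, against 45.9, 31.7 and 33.1 at ZT0 (adjusted p = 0.0105, limma). Ppp1r3b, the main glycogen-targeting phosphatase subunit of liver, was between 78.6 and 116 FPKM in 8 of the 9 libraries of ZT0, ZT12 and ZT18 (ZT12 replicate 3 was at 32), against 11.8, 12.8 and 13 at ZT6 (adjusted p = 0.000584, limma). Ppp1r3g, another subunit of that family, was at 0.53, 1.43 and 2.33 FPKM at ZT6, against 0 to 0.13 at ZT0. Of 18 gluconeogenesis and glycogen genes, 8 passed (44.4%, against 20.5% of all genes), 5 in all 4 fits. Thrsp, a regulator of fat synthesis, was at 2470, 2550 and 1190 FPKM at ZT12 and 1580, 734 and 4220 at ZT18, against 56.7, 304 and 114 at ZT6. Elovl6, which makes stearate from palmitate, was at 119, 76.5 and 124 FPKM at ZT18, against 10.7, 24.1 and 26.8 at ZT0. Fads2, a fatty acid desaturase, was highest at ZT6 (440, 497 and 440 FPKM) and at 156, 105 and 178 at ZT18. Of 17 lipogenesis genes 7 passed (41.2%), but 3 in all 4 fits, and those 3 are the genes just given. Nampt, the rate-limiting enzyme of NAD salvage, was at 15.4, 16.5 and 16.1 FPKM at ZT12, against 1.78, 6.09 and 6.15 at ZT0 (adjusted p = 0.0194, limma, or 0.0565 with unfiltered genes).

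Heat shock genes, whose products keep proteins folded, were mostly highest at ZT12 or ZT18 when they passed. Of 14 heat shock and cold-inducible genes tested, 10 passed (71.4%, against 20.5% of all genes). Of these, 6 were highest at ZT12, 3 at ZT18 and 1 at ZT6, and 5 passed in all 4 fits. The median difference between highest and lowest mean was 1.62 log2 in this list, against 0.55 over all genes tested. Hspa8, the constitutive HSP70, was at 1560, 1020 and 1130 FPKM at ZT18 and 1090, 1090 and 652 at ZT12, against 313, 324 and 379 at ZT6 (adjusted p = 0.00811, limma). Hsph1, its exchange factor, was at 29.6, 28.8 and 11.5 FPKM at ZT12, against 3.76, 5.05 and 6.91 at ZT6. Hspb1, a small heat shock protein, was at 39.8, 50.4 and 59.3 FPKM at ZT18, against 11.2, 3.32 and 7.38 at ZT6 (adjusted p = 0.017, limma, or 0.0549 with unfiltered genes). Rbm3, an RNA-binding protein known for its induction by cold, was at 49.7, 51.1 and 50.8 FPKM at ZT12, against 14, 19.9 and 13.2 at ZT0. The binding element of HSF1 (GAA, TTC and GAA in turn, each 2 bases apart, on either strand) stood in 3 of the 10 windows that RefSeq gives for the list, against 51 of 7886 genes tested (0.647%). It is shown for Hspe1, a mitochondrial chaperone, at chr1:55088054-55088081 of GRCm38.p6 (plus strand, in an exon of Hspd1 on the other strand), where 2 elements overlap in capitals.
Hspe1: gtccgTTCTAGAACCTTCCGGAAggccc
Hspe1 itself was at 360, 257 and 644 FPKM at ZT18, against 156, 162 and 156 at ZT6 (adjusted p = 0.0323, limma), a call that ended with the ZT12 pair averaged (0.0643).

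Genes highest in the middle of the dark phase included a translation inhibitor, secreted plasma proteins and subunits of the respiratory chain. Eif4ebp3, an inhibitor of translation initiation, was at 188, 106 and 149 FPKM at ZT18 and 70.6, 74 and 58.4 at ZT12, against 15.4, 26.6 and 13.2 at ZT0 and 14.7, 18 and 14.7 at ZT6. No ZT12 or ZT18 library overlapped with those of ZT0 and ZT6. The highest and lowest means differed by 3.11 ± 0.27 log2 (SE; adjusted p = 0.000156, limma). Nop56, a nucleolar protein of ribosome assembly, was at 25, 12.8 and 15.7 FPKM at ZT18, against 7.92, 5.23 and 5.08 at ZT6 (adjusted p = 0.0134, and 0.0835 without library scaling, limma). Serpina12, the adipokine vaspin, was at 60.3, 57.7 and 97.5 FPKM at ZT18, against 3.63, 7.21 and 13.1 at ZT6. G0s2, an inhibitor of the lipase ATGL, was at 443, 160 and 147 FPKM at ZT18, above all other libraries (27 to 67). Orm1, an acute phase plasma protein, was at 2050, 1760 and 2790 FPKM at ZT18, above all other libraries (641 to 1300), and its near copy Orm2 was also highest at ZT18 (28.1, 25.4 and 39.3, above all other libraries). Apoc3, an apolipoprotein that slows triglyceride clearance, was at 8230, 7540 and 10400 FPKM at ZT18, against 2630, 2870 and 2860 at ZT6 (adjusted p = 0.0124, limma, or 0.0746 with unfiltered genes). Asl, a urea cycle enzyme, was at 650, 410 and 997 FPKM at ZT18 and 696, 688 and 486 at ZT12, against 139, 221 and 195 at ZT6. Nnmt, which methylates nicotinamide, was at 272, 177 and 438 FPKM at ZT18, against 32.5, 65.3 and 64.9 at ZT0. Sult1d1, a sulfotransferase, was at 138, 99.1 and 79.8 FPKM at ZT18, against 2.66, 23.8 and 29.3 at ZT0, and its call ended without ZT18 replicate 1 (adjusted p = 0.0226, and 0.0546 without that library, limma).

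Major urinary proteins, pheromone carriers made in large amounts by male liver, were a large part of this RNA. As a family they took 4.15% to 14.4% of the FPKM of a library, with 6.28%, 11.9% and 13.2% at ZT0, 4.15%, 8.09% and 7.85% at ZT6, and 12.4% to 14.4% in the ZT12 and ZT18 libraries. Mup1 was at 7340, 5570 and 10400 FPKM at ZT18 and 191, 1330 and 1120 at ZT6, and Mup8 and Mup12 were also among the 8 largest changes at that time. Their copies are so alike that the split of reads between them is uncertain. Of 24 oxidative phosphorylation genes tested, 10 passed (41.7%, against 20.5% of all genes). All 10 were highest at ZT18, and 5 passed in all 4 fits. Atp5j, a subunit of ATP synthase, was at 694, 592 and 1040 FPKM at ZT18, against 231, 326 and 301 at ZT6 (adjusted p = 0.015, limma). Cox7b, a cytochrome oxidase subunit, was at 334, 288 and 529 FPKM at ZT18, against 110, 153 and 160 at ZT6. Such transcripts are short, and across genes the difference of ZT18 against ZT6 fell with transcript length (rho = -0.49).

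**Figure D4:**
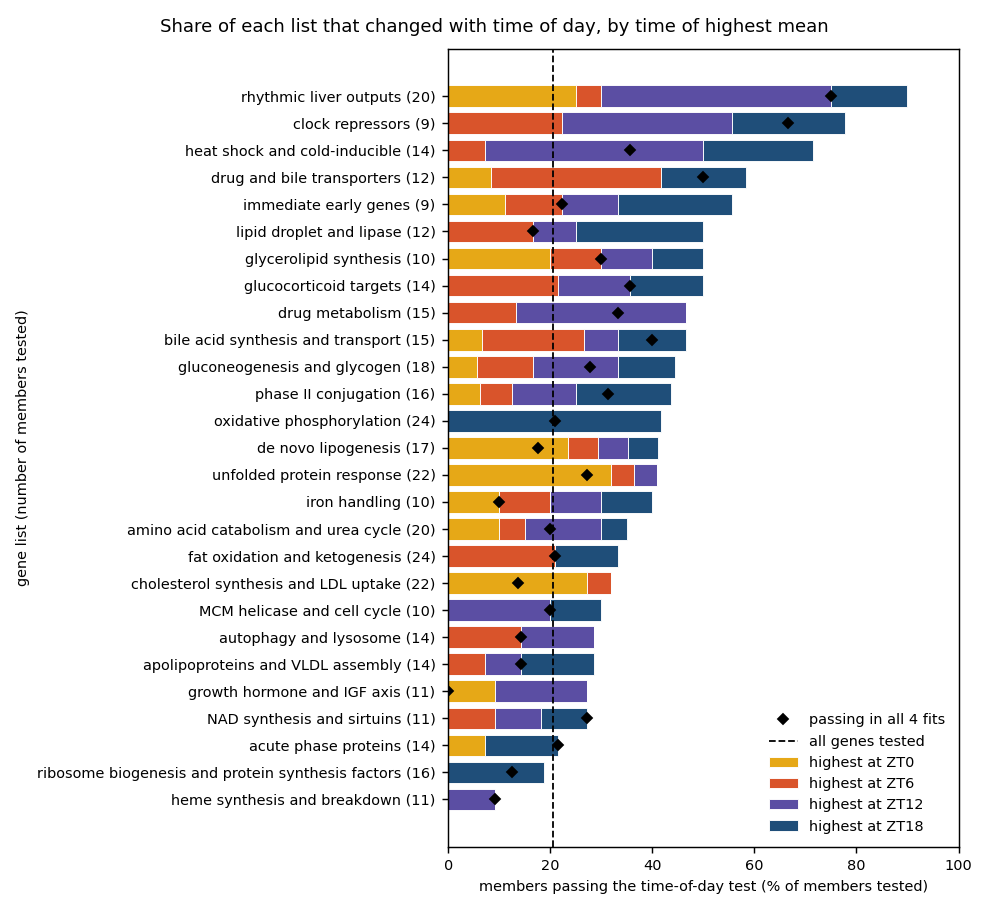
For each gene list with at least 9 members tested (rows, number tested in brackets), the bar gives the members that passed the time-of-day test as a percentage of those tested (horizontal axis), coloured by the time of the highest mean. Diamonds give the percentage that passed in all 4 fits, and the dashed line at 20.5% is the share over all genes tested, under which lie the lists for ribosome biogenesis (18.8%) and heme (9.09%).

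Further lists are given by their counts, to be read beside the 20.5% of all genes tested that passed. Of 14 autophagy and lysosome genes 4 passed (28.6%), among them Gabarapl1, an autophagosome protein, at 150, 189 and 219 FPKM at ZT6, against 75.4, 59.7 and 62.3 at ZT18. Of 14 acute phase genes 3 passed (21.4%), near the share over all genes. Of 11 growth hormone and IGF genes 3 passed (27.3%), none with the ZT12 pair averaged, among them Igf1 (adjusted p = 0.0333, and 0.0852 with the pair averaged, limma). Of 20 genes listed as rhythmic liver outputs, a list chosen because its genes are known to cycle in mouse liver, 18 passed (90%) and 15 did in all 4 fits. Of 10 cell cycle genes 3 passed, with Wee1, a mitotic kinase under clock control, at 3.58, 3.85 and 4.24 FPKM at ZT12, against 0.565, 0.405 and 0.658 at ZT0. Cdkn1a, a brake on the cell cycle, was at 6.26, 19.3 and 3.77 FPKM at ZT18 and 8.13, 7.06 and 6.33 at ZT0, against 0.49, 0.655 and 0.409 at ZT12.

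Compared in pairs, the times differed most between ZT18 and ZT6, where 1472 genes (14.3%) were higher and 1097 (10.7%) lower at ZT18. At ZT12 against ZT6, 467 genes (4.54%) were higher and 335 (3.26%) lower, but with the ZT12 pair averaged the numbers were 4 and 3. At ZT12 against ZT0, 159 genes (1.55%) were higher and 233 (2.27%) lower, and at ZT6 against ZT0, 214 (2.08%) and 239 (2.32%). At ZT18 against ZT0, 140 genes (1.36%) were higher and 161 (1.57%) lower. At ZT18 against ZT12, 27 genes (0.263%) were higher and 12 (0.117%) lower. The counts moved with single libraries. With 1 library left out, ZT18 against ZT0 gave from 21 genes (without ZT0 replicate 3) to 1218 (without ZT0 replicate 2), and with the ZT12 pair averaged 43 were higher and 35 lower. ZT12 against ZT0 gave from 93 (without ZT12 replicate 1) to 746 (without ZT0 replicate 2), and ZT6 against ZT0 from 114 (without ZT6 replicate 3) to 1362 (without ZT0 replicate 3). ZT12 against ZT6 gave from 6 (without ZT12 replicate 2) to 1895 (without ZT18 replicate 3), and ZT18 against ZT12 gave as few as 6 when ZT12 replicate 1 was left out and as many as 60 when ZT6 replicate 1 was. ZT18 against ZT6 fell to 1442 at the lowest, without ZT6 replicate 3. The 6 comparisons share their libraries and are not independent. With values as deposited, without scaling, the median difference over all genes was 0.13 for ZT6 against ZT0, -0.12 for ZT12 against ZT0, -0.2 for ZT18 against ZT0, -0.31 for ZT12 against ZT6, -0.38 for ZT18 against ZT6 and -0.07 for ZT18 against ZT12, so directions hold relative to the typical gene. The share of called genes that were higher then became 78.8%, 24.5%, 9.45%, 9.34%, 13.5% and 42.3% in the same order, against 47.2%, 40.6%, 46.5%, 58.2%, 57.3% and 69.2% with scaling. With trends of GC content and length removed, ZT18 against ZT6 gave 1212 genes higher and 1211 lower.

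The labelled tissue had the RNA of liver: the 10 hepatocyte markers summed to 58300 to 72300 FPKM at ZT0, 45400 to 58900 at ZT6, 76100 to 80900 at ZT12 and 48300 to 109000 at ZT18, and all 5 adipocyte markers stayed under 1 FPKM. The 10 endothelial markers summed to 63.5 to 91.6 FPKM at ZT0, 47.8 to 57.3 at ZT6, 83.3 to 88.1 at ZT12 and 68 to 93.4 at ZT18, so the ZT6 libraries were below all others. The 12 macrophage markers summed to 128 to 283 FPKM at ZT0, 178 to 319 at ZT6, 144 to 173 at ZT12 and 98.6 to 192 at ZT18. The 10 stellate and fibroblast markers summed to 50.9 to 79.8 FPKM at ZT0, 83.9 to 118 at ZT6, 88.7 to 95.7 at ZT12 and 110 to 148 at ZT18, so the ZT0 libraries were below all others. Of the markers tested, 2 of 10 hepatocyte (20%), 3 of 10 endothelial (30%) and 2 of 12 macrophage genes (16.7%) passed, none of them in all 4 fits. Over all genes tested the share was 20.5%, and 7.15% in all 4 fits. Of 9 stellate and fibroblast genes 4 passed (44.4%), and of 5 cholangiocyte genes 4 (80%), with 2 of each in all 4 fits. Of 2 erythroid genes 1 passed in all 4 fits, the globin gene Hbb-bs, and of 2 lymphocyte genes 1, the co-receptor gene Cd4. The 6 pancreas and gut markers summed to 27.5 to 28.3 FPKM at ZT0 and 14 to 19.1 at ZT6. They summed to 33.1 to 41.1 FPKM at ZT12 and 21.7 to 47.2 at ZT18, and 4 stayed under 1 FPKM. Of these markers Cela1 passed (adjusted p = 0.0283, limma), but not with the ZT12 pair averaged. The 7 neutrophil markers summed to 1.43 to 9.26 FPKM. The 8 cholangiocyte markers summed to 26.5 to 73.3 FPKM at ZT0, 25.2 to 42.7 at ZT6, 34.2 to 45.3 at ZT12 and 39.7 to 55.5 at ZT18. The bile duct keratin gene Krt19 was at 2.47, 3.06 and 2.6 FPKM at ZT18, against 0.68, 0.436 and 0.61 at ZT6, and passed in all 4 fits. In bulk tissue, fewer cells of a type and less RNA per cell cannot be told apart, and the part of cell mixture in the results was not tested.

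Whether these daily profiles differed from those of low-fat offspring of control mothers was tested as an interaction of time with the maternal schedule over 24 libraries scaled together. Of 10552 genes, 1 passed (0.00948%) in limma, and 1374 (13%) were at an unadjusted p under 0.05. With the near-identical pairs of both arms averaged (in the control arm, ZT6 replicates 2 and 3) none passed, with 961 at an unadjusted p under 0.05 and a lowest adjusted p of 0.0699. The gene that passed, G530011O06Rik, a gene model without a known role, named after its values were seen, was at 0.425, 0.817 and 0.752 FPKM at ZT18 in offspring of shifted mothers, against 9.11, 8.64 and 4.43 at ZT18 in offspring of control mothers (adjusted p = 0.0124). At the other times it was at 0.16 to 0.381 FPKM in the shifted arm and 0.217 to 1.44 in the control arm. It thus met the filter on low values only through the control ZT18 libraries, the group in which it was high. When that filter was dropped, no gene passed, and the lowest adjusted p was 0.0659 (limma interaction). No gene passed without the ZT18 replicates 1 or 2 of either arm, while 42 passed without ZT0 replicate 2 of the shifted arm, 24 without ZT0 replicate 1 of the control arm and 17 without ZT18 replicate 3 of the shifted arm. The arms come from tables made separately, so levels set across them also carry any difference between the tables.

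The clock genes gave no call in that test. Their adjusted interaction p ran from 0.34 to 0.933 (limma) over 17 genes, with 1 of 17, Nr1d2, at an unadjusted p under 0.05. Of the 12 that changed with time in the shifted arm, 11 had their highest mean at the same time in the control arm and 11 passed there too. Arntl averaged 9.34, 1.02, 0.296 and 4.57 FPKM from ZT0 to ZT18 in the shifted arm, against 8.12, 1.38, 0.875 and 4.89 in the control arm (adjusted p = 0.732 in limma's interaction fit). An interaction p over the threshold does not show that the arms are alike. Dbp, the exception in peak time, averaged 26 and 32.3 FPKM at ZT6 and ZT12 in the shifted arm, against 19.3 and 16.6 in the control arm.

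Genes next in order of interaction p, none of which passed, are given as values. With the near-identical pairs averaged, the adjusted p of each was 0.488 (limma interaction fit). Mmp15, a membrane-bound matrix protease, averaged 5.6 FPKM at ZT18 in the shifted arm, against 8.89 in the control arm, while at ZT6 it averaged 9.22, against 5.18 (adjusted p = 0.115 in limma's interaction fit, as for the next 4 genes). Cyp4a12a, a male fatty acid hydroxylase, was at 25.4, 26.6 and 40.8 FPKM at ZT6 in the shifted arm, against 115, 101 and 102 in the control arm. Cyp2c44, an epoxygenase, was at 201, 198 and 203 FPKM at ZT12 in the shifted arm, against 157, 126 and 105 in the control arm. Sel1l3, of the SEL1L family, was at 5, 5.04 and 5.07 FPKM at ZT6 in the shifted arm, against 3.45, 3.01 and 3.02 in the control arm. Lyve1, a marker of lymphatic and sinusoidal endothelium, was at 4.6, 4.33 and 1.75 FPKM at ZT18 in the shifted arm, against 1.17, 1.25 and 1.18 in the control arm. Tmem204, a membrane protein, was at 5.15, 5.03 and 5.77 FPKM at ZT18 in the shifted arm, against 3.11, 2.01 and 2.57 in the control arm (adjusted p = 0.143 in limma's interaction fit). In each of these genes the arms were apart at some times and overlapped at others.

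**Figure D5:**
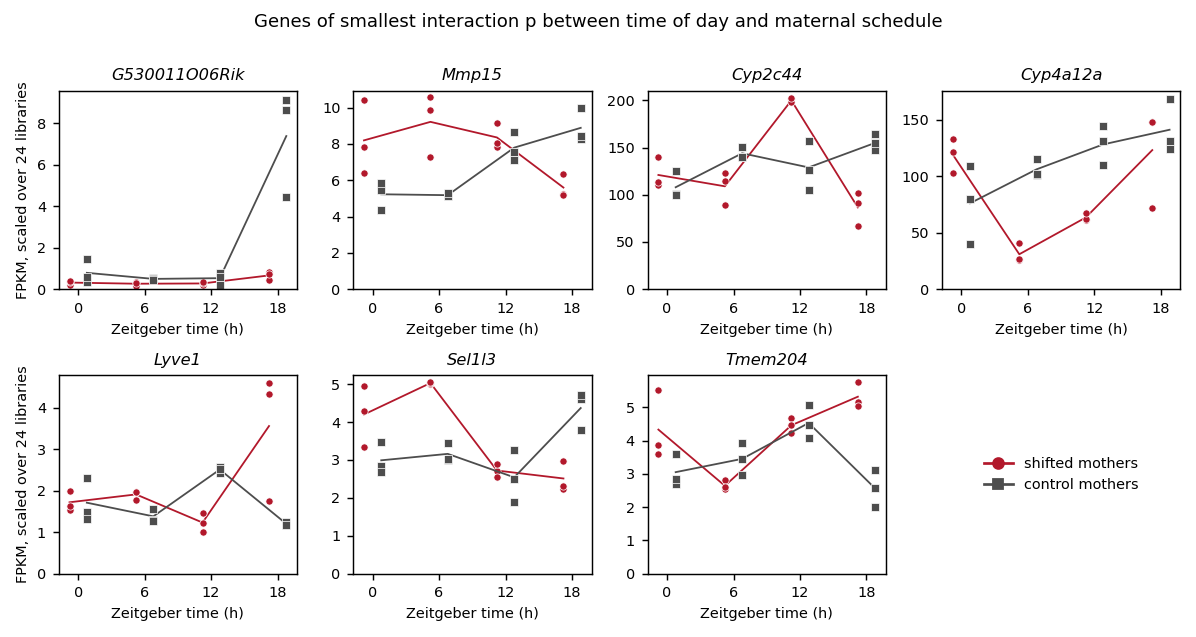
FPKM scaled over 24 libraries (vertical axes) at the 4 times (horizontal axes) for the 7 genes of smallest interaction p named in the text, with offspring of shifted mothers as red circles to the left and offspring of control mothers as grey squares to the right at each time, 3 points each and lines through the means. G530011O06Rik is above 4 FPKM only at ZT18 in the control arm, and Cyp4a12a is lower in the shifted arm at ZT6 and ZT12.

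Tested on their own in the same way, the 12 control libraries gave 1455 of 10105 genes that changed with time (14.4%), and 459 with their near-identical ZT6 pair averaged. In both arms 514 genes passed, which is 24.4% of the shifted list and 35.3% of the control list. Of the 2034 genes called in the shifted arm and tested in both, 1206 (59.3%) had their highest mean at the same time in the control arm, against 3312 of 7965 genes that were not called (41.6%). That share was 46.9% for genes highest at ZT0 and 69.7% at ZT6, and 67.4% for those highest at ZT12 and 54.6% at ZT18. Passing in 1 arm and not in the other is no difference between arms, for which the interaction is the test.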

How the data were processed

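Poly(A) RNA of mouse liver was sequenced from stranded libraries, per the labels' protocols. The authors deposited 1 table of FPKM per group, with a column for each time and replicate. The submitters' processing notes name TopHat2 2.1.1, Cufflinks 2.2.1 and the mm10 build, and the annotation used is not stated in the labels or notes. Replicate numbers come from the column names. No counts are given, so depth is unknown.

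Of 24883 entries, 817 that shared a symbol with another entry were left out (280 symbols), which left 24066 genes. The 12 libraries were scaled by the median of ratios, and genes with at least 1 FPKM in at least 3 libraries were kept. Time was tested on log2(FPKM + 1) with limma 3.58.1 in R 4.3.3 (F test, Benjamini-Hochberg threshold 0.05), and pairs of times by contrasts of the same fit. The interaction used 24 libraries. A difference between highest and lowest mean was chosen as the largest and is a description.

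Named genes were the clock genes, the 8 with the largest difference per peak time among those called with a mean of at least 1 FPKM at the peak, up to 4 called members of smallest p per list (the smallest p where none was called), and the genes of smallest interaction p. Unnamed gene models, small RNAs and entries that join several symbols were not eligible for the largest differences or the smallest interaction p. The gene model G530011O06Rik is named because it passed the interaction test. The members and lists were chosen with earlier results of these data known. Averaging near-identical libraries and removing trends of GC content and length (splines of 4 degrees of freedom) were added after seeing the data. Motifs were searched with Python 3.11.15 and figures drawn with matplotlib 3.10.9. Replicates with the same number did not deviate together (4 of 18 correlations over 0.1, from -0.38 to 0.29), so samples were not paired. 1 clock gene is not reported here.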

Additional observations from a re-analysis of the deposited data

Results flagged for a closer look

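The daily profile of G530011O06Rik differed between offspring of shifted mothers and offspring of control mothers in the interaction test over all genes (adjusted p = 0.0124, limma). At ZT18 it averaged 0.665 FPKM in offspring of shifted mothers, against 7.39 FPKM in offspring of control mothers. With the near-identical libraries averaged the adjusted p was 0.0699 (limma). No gene passed with a pseudocount of 0.1, without the filter on low values, as deposited, or with averaging and trends removed together. The lowest adjusted p of any gene was then 0.0659 to 0.2 (limma interaction). With upper quartile scaling, a replicate block or trends removed, 1 gene passed. G530011O06Rik met the filter on low values only through the control ZT18 libraries, where it was high.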

How the results depend on the processing

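For no named gene did the mean at its highest time fall below that at its lowest time under the alternatives run. Those times were chosen as the extremes of mostly the same libraries, so few reversals could arise, and the cosine fit could not show one. The balance of higher and lower genes in a pair of times did turn, as given with those counts. The 2104 genes that changed with time became 1247 without the filter on low values, 3384 with values as deposited, 4250 in a fit of 48 offspring libraries, 977 with near-identical libraries averaged and 1265 with averaging and trends of GC content and length removed, and 751 to 2887 with 1 library left out. At an unadjusted p under 0.05 there were 3944 such genes. The number pairs of samples share did not pair them, and with a replicate block the count was 1421, and 310 for ZT12 against ZT6. Values as deposited gave 783 genes for ZT6 against ZT0, 1175 for ZT18 against ZT0, 1991 for ZT12 against ZT6 and 3978 for ZT18 against ZT6. Without the filter the counts were 207 for ZT12 against ZT0, 64 for ZT18 against ZT0 and 360 for ZT12 against ZT6. With libraries averaged they were 266 for ZT6 against ZT0, 94 for ZT12 against ZT0, 78 for ZT18 against ZT0, 7 for ZT12 against ZT6 and 6 for ZT18 against ZT12. With trends removed they were 468 for ZT18 against ZT0 and 92 for ZT18 against ZT12, and with both changes 188 for ZT12 against ZT0, 196 for ZT18 against ZT0, 61 for ZT12 against ZT6 and 14 for ZT18 against ZT12. With 1 library left out the ranges were 114 to 1362 for ZT6 against ZT0, 93 to 746 for ZT12 against ZT0, 21 to 1218 for ZT18 against ZT0, 6 to 1895 for ZT12 against ZT6, 1442 to 3421 for ZT18 against ZT6 and 6 to 60 for ZT18 against ZT12. The interaction gave 0 genes in limma with a pseudocount of 0.1 (1330 at an unadjusted p under 0.05), without the filter (1926), as deposited (1690), with libraries averaged (961) and with both changes (908), and 0 to 42 with 1 library left out. The causes were not tested. Of 141 named genes called, 105 passed without the filter, 114 with a cosine, 125 as deposited, 112 with libraries averaged and 108 to 136 with 1 library left out. FPKM give no depth, so no limit by counting can be set.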
